A study of Homo sapiens and Mus musculus with 13 samples.

Results

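R-loop maps of mouse embryonic stem cells and fibroblasts were compared through their DRIP-seq peak lists. The members are all peaks on chromosomes 1 to 19 of the E14 and 3T3 lists, 52246 of 53859 rows for E14 and 35219 of 35894 rows for 3T3. Together they make up 87465 of the 454693 peaks in the 9 peak lists of the series, which has 13 samples. E14 is labelled as a line of embryonic stem cells and 3T3 as a line of embryonic fibroblasts; no treatment or genotype is given for either. Genomic DNA of both was cut with the same 5 restriction enzymes, HindIII, EcoRI, BsrGI, XbaI and SspI, before hybrids were recovered with an antibody and the DNA was sequenced. Another mouse list, 3T3 DRIPc-seq with 39004 peaks on these chromosomes, maps the RNA strand of the hybrids and was used as a readout that took no part in defining shared peaks. Its deposited name mentions RNase A, which its labels do not, so a treatment of that library is possible and its DRIPc values carry that doubt.

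An R-loop consists of RNA paired with its template DNA and of the displaced other DNA strand. R-loops form mostly during transcription, when the nascent RNA pairs again with the DNA behind the polymerase, and are known for their presence at CpG island promoters and at the ends of many genes. DRIP-seq resolves them at the size of restriction fragments, so a peak marks a stretch that contained hybrid rather than the hybrid itself.

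Each line is represented by 1 list from 1 library. A difference between the cell types therefore cannot be told apart from one between libraries, no test between the lines is possible, and no p-value is given. The lists hold positions without read counts, so the depth of each library is unknown and absence from a list says only that no peak was called. Intervals are exact Clopper-Pearson 95% intervals of a share of peaks and cover counting error only. Positions are on mm9 and counted from 1. Regions carry no gene names, because no mouse annotation was used, and the lines were not checked against marker genes.

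The stem cell list held more and shorter peaks, while the covered length was similar. E14 peaks had a median length of 1758 bp, with 10% under 495 bp and 10% over 5075 bp. 3T3 peaks had a median of 2199 bp, with the same limits at 551 and 7909 bp. E14 peaks covered 126.7 Mb in all and 3T3 peaks 121.0 Mb. The excess of 3T3 length lay in the long peaks: 2078 of its peaks, or 5.90%, reached 10 kb, against 823 (1.58%) in E14. A single E14 peak of 299.9 kb on chromosome 12 stood apart from both lists, since the longest 3T3 peak measured 77.0 kb. In both lists some neighbouring rows abut with a step of 1 bp, 3526 times in E14 and 2731 times in 3T3, so a continuous region can count as several peaks.

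A larger share of the 3T3 than of the E14 peaks was found in the other list, while the shares of covered length were closer. Of the E14 peaks, 25329, or 48.5% (48.1 to 48.9%), touched a 3T3 peak by at least 1 bp. Of the 3T3 peaks, 21710, or 61.6% (61.1 to 62.2%), touched an E14 peak. The lists had 60.9 Mb in common, which was 48.1% of the E14 and 50.3% of the 3T3 covered length; these percentages differ only through the total covered lengths. Unshared peaks were shorter than shared ones in both lists, with medians of 1326 against 2311 bp in E14 and 1410 against 2894 bp in 3T3. They differed in how far they lay from the other list. Of the 26917 unshared E14 peaks, 27.3% were more than 100 kb from any 3T3 peak, and their median distance was 23.1 kb. Among the 13509 unshared 3T3 peaks, 12.8% lay that far from an E14 peak, with a median of 9.87 kb. A list with more peaks leaves shorter distances to it, and the distances were not adjusted for the larger E14 list. When peaks more than 100 kb from the other list were left out, 56.4% of E14 and 64.8% of 3T3 peaks were shared. Such peaks are unshared by definition, so leaving them out could only raise both shares.

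At matched length, 3T3 peaks were still found in E14 more often than the reverse, except among the longest. Of peaks under 500 bp, 23.2% (22.0 to 24.3%) of those in E14 and 34.4% (32.6 to 36.1%) of those in 3T3 were shared. Between 1 and 2 kb the shares were 46.2% (45.4 to 47.0%) and 55.2% (54.0 to 56.3%). Between 5 and 10 kb they were 76.6% (75.3 to 77.8%) and 80.0% (79.0 to 81.1%). The 3T3 share was the higher one in each of the 5 classes below 10 kb. At 10 kb or more, the shares were 84.7% (82.0 to 87.1%) for E14 and 85.1% (83.5 to 86.6%) for 3T3, with overlapping intervals. Weighted to the length make-up of the 3T3 list, 52.7% of E14 peaks were shared, which narrowed the gap to 3T3 from 13.2 to 8.94 percentage points. Weighted to that of E14, 58.3% of 3T3 peaks were shared, 9.84 points above E14. Neither weighting adjusts for the larger number of peaks in the E14 list.

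The requirement for overlap turned the order among long peaks. When at least 50% of a peak had to be covered, 60.3% (58.9 to 61.7%) of E14 peaks of 5 to 10 kb were found in 3T3, and 55.3% (54.0 to 56.7%) of 3T3 peaks in E14. For peaks of 10 kb or more these shares were 66.0% (62.6 to 69.2%) and 59.3% (57.2 to 61.5%). Over all peaks they were 40.4% for E14 and 47.8% for 3T3. A shared E14 peak was typically covered almost whole, with a median of 98.9% of its length, while a shared 3T3 peak was covered at a median of 83.5%.

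**Figure D1:**
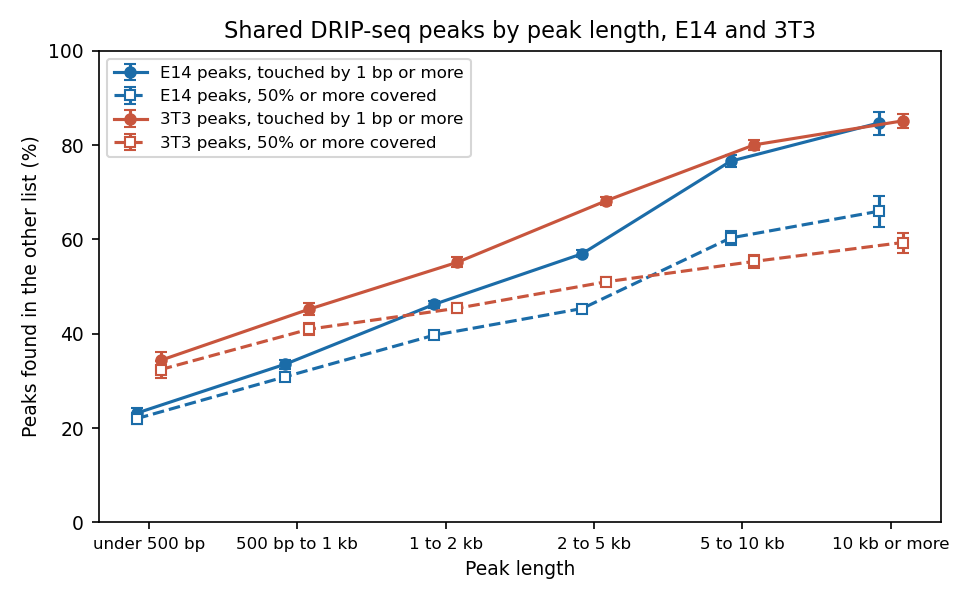
Share of E14 (blue) and 3T3 (red) DRIP-seq peaks found in the other list, in percent, by peak length. Filled circles count a touch of 1 bp, open squares at least 50% cover, and bars are exact 95% intervals; by touch both lines rise from under 35% for the shortest peaks to about 85.1% for 3T3 peaks of 10 kb or more, and by cover the order of the lists turns above 5 kb.

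Where peaks met, they seldom had the same outline. Of the shared E14 peaks, 85.1% touched exactly 1 3T3 peak, and of the shared 3T3 peaks 74.0% touched exactly 1 E14 peak. A single 3T3 peak touched up to 13 E14 peaks. In 11118 pairs, each peak touched only the other, and the median lengths in these were 2036 bp in E14 and 2160 bp in 3T3. The 3T3 peak was the longer one in 54.0% of pairs, and 59.3% of pairs differed in length by less than 2-fold. Of the 22236 edges of these pairs, 9.30% lay within 50 bp of the like edge of the partner. The median distance between like edges was 508 bp, and both edges were within 50 bp in 163 pairs. How many edges fall on recognition sites of the enzymes was not analysed here.

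Along the chromosomes, the lists had a similar broad layout in bins of 1 Mb. At least 1 list had a peak in 2385 of 2482 bins, and across these the covered lengths had a Spearman rho of 0.84 and a Pearson r of 0.84. This is a description of bins that share a genome, its gene density and the enzymes. The median bin held 29.9 kb of E14 cover (quartiles 8.03 and 72.6 kb) and 24.0 kb of 3T3 cover (quartiles 0.274 and 68.7 kb). The highest bin reached 435.6 kb in E14 and 507.5 kb in 3T3.

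Bins with peaks of 1 list only were nearly all stem cell bins. E14 alone had peaks in 509 of the 2385 bins, and 3T3 alone in 6. The E14 bins held 2273 peaks, 4.35% of that list, with a median cover of 5.59 kb and 22 bins at 20 kb or more. The 3T3 bins held 18 peaks, with a median of 3.02 kb and none at 20 kb. The imbalance also held at other bin sizes, with 1403 against 66 bins of 0.5 Mb and 118 against 2 bins of 2 Mb. A list with more peaks can reach more sparse bins for that reason too, and these bin counts were not adjusted for it. Of the 509 bins, 396 had no 3T3 DRIPc-seq peak. These bins were picked for lacking 3T3 DRIP-seq peaks, so this count is tied to that choice. Equally sparse bins with 3T3 peaks were not compared.

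The densest bins leaned the other way. Bins were ordered by the summed cover of both lists and split into quartiles. In the lowest quartile, E14 covered 3.18 Mb and 3T3 0.300 Mb in 597 bins. In the second quartile they covered 12.5 and 8.96 Mb, and in the next 31.4 and 27.5 Mb. In the densest quartile of 596 bins, E14 covered 79.6 Mb and 3T3 84.2 Mb. The E14 list was thus spread more widely over sparse megabases, and 3T3 had slightly more cover in the dense ones. The larger number of E14 peaks was not adjusted for here.

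To rank single bins, the log2 ratio of covered length, E14 over 3T3, was taken with 5 kb added to both, and the median of all bins, 0.34, was subtracted. The ratio was 1 or more in 370 bins, 15.5% of those compared, and -1 or less in 295 bins, 12.4%. These bins thus differed at least 2-fold from the median. E14 made up 55.6% of the called bins, but that split depended on the setting: 45.0% with bins of 0.5 Mb, 67.1% with 2 Mb, 61.7% with 2 kb added, 40.1% with 20 kb added, 76.4% when centred on total cover and 79.3% with no centring. Only the counts of each kind are therefore given, and no direction is drawn from them. Most blocks of consecutive called bins were a single bin, 198 of 270 on the E14 side and 172 of 223 on the 3T3 side. Counted by bins, 198 of the 370 and 172 of the 295 had no called neighbour of the same kind. The ratios of adjacent bins had a Spearman rho of 0.25 over 2332 pairs.

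Bins called higher in 3T3 nearly always held signal from the fibroblast RNA strand. Only 2 of the 295 (0.678%) had no 3T3 DRIPc-seq peak, and their median DRIPc cover was 57.2 kb. Of the 370 bins higher in E14, 147 (39.7%) had no DRIPc peak, with a median DRIPc cover of 1.37 kb. Among the 1720 other bins the figures were 18.7% and 26.8 kb. No 3T3 DRIP-seq peak was present in 332 of these other bins, in 177 of the E14-higher bins and in 0 of the 3T3-higher bins. The DRIPc figures were not split by whether a bin held 3T3 peaks, so the 3 kinds of bin are not on an equal footing. The E14-higher bins were also sparser, with a median E14 cover of 19.1 kb against a median 3T3 cover of 66.6 kb in bins higher in 3T3.

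**Figure D2:**
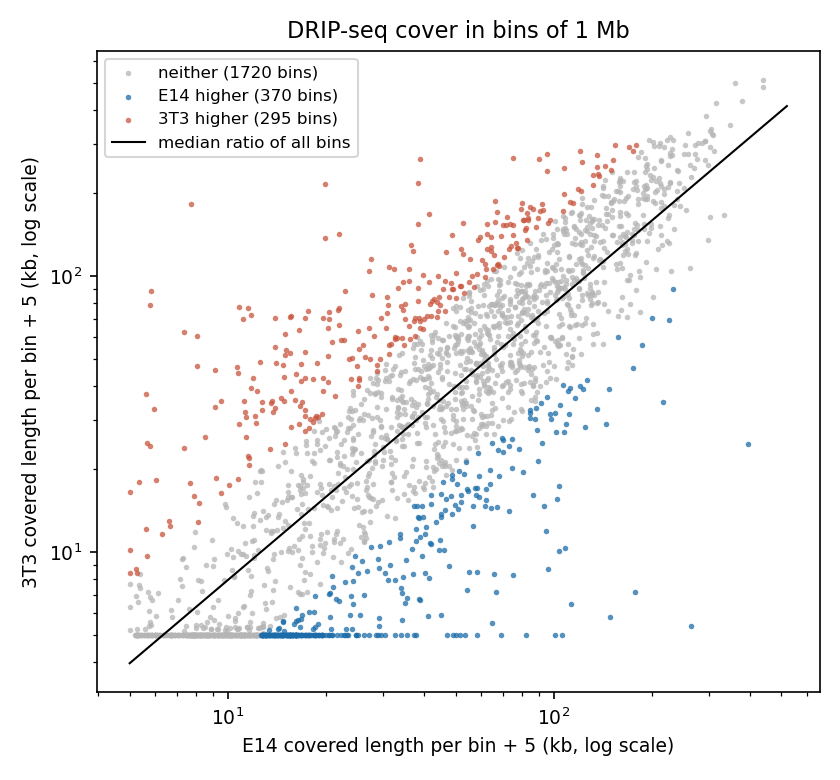
Covered length per 1 Mb bin in E14 (x axis) and 3T3 (y axis), in kb with 5 kb added, both on log scales; each point is 1 of 2385 bins and the line is the median ratio. Blue marks the 370 bins higher in E14 and red the 295 higher in 3T3, and the row of points at 5 kb on the y axis is the 509 bins without a 3T3 peak.

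The bins farthest on the E14 side lay in a few clusters. At 146 to 147 Mb of chromosome 4, E14 had 147 peaks covering 259.1 kb and 3T3 had 0.393 kb. The bin before it, from 145 to 146 Mb, held 172.7 kb in E14 and 2.15 kb in 3T3. At 66 to 67 Mb of chromosome 13, 102 E14 peaks covered 144.2 kb, against 0.842 kb in 3T3. Chromosome 1 at 12 to 13 Mb and chromosome 14 at 4 to 5 Mb had 101.1 and 96.2 kb in E14 and nothing in 3T3. In these 5 bins 3T3 DRIPc-seq covered between 0 and 3.39 kb.

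On the 3T3 side, the farthest bins were rich in DRIPc signal. At 114 to 115 Mb of chromosome 4, 35 3T3 peaks covered 176.6 kb and 3 E14 peaks 2.71 kb, with 128.3 kb of DRIPc cover. At 116 to 117 Mb of chromosome 9, 3T3 covered 83.0 kb and E14 0.799 kb. On chromosome 17 at 44 to 45 Mb the values were 73.2 and 0.785 kb, and on chromosome 1 at 170 to 171 Mb 57.8 and 2.33 kb. The bin at 67 to 68 Mb of chromosome 11 had 210.7 kb in 3T3 and 14.8 kb in E14. DRIPc cover in these 5 bins ran from 56.0 to 147.2 kb.

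Whole chromosomes differed less than single bins. E14 had more peaks than 3T3 on each of the 19 chromosomes, from 1.18 times as many on chromosome 19 to 2.10 times on chromosome 14. In covered length E14 was ahead on 11 of them. Chromosome 13 had the highest ratio, 5.01 Mb in E14 and 2.95 Mb in 3T3. Chromosome 14 followed with 5.04 and 3.37 Mb. Chromosome 19 had the lowest ratio, 3.55 Mb in E14 and 4.62 Mb in 3T3. The share of E14 peaks found in 3T3 followed the same chromosomes, with 32.5% (30.6 to 34.5%) on chromosome 13, 34.9% (32.9 to 36.9%) on chromosome 14 and 61.2% (58.6 to 63.8%) on chromosome 19. In the other direction the share ran only from 52.6% on chromosome 6 to 68.3% on chromosome 2.

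Domains of 1 list only were more numerous in the stem cells, and those of the fibroblasts more often held a 3T3 DRIPc-seq peak. A domain was a stretch between neighbouring peaks of the other list that held at least 5 peaks. E14 had 1531 such domains with 15218 peaks, which was 29.1% of its list and 56.5% of its unshared peaks, covering 29.7 Mb. 3T3 had 518 domains with 4621 peaks, 13.1% of its list and 34.2% of its unshared peaks, covering 13.0 Mb. The median domain held 7 peaks in both. A list with more peaks than the other can form more domains for that reason too, and the domain counts were not adjusted for it. A 3T3 DRIPc peak lay within the span of 718 E14 domains (46.9%) and of 482 3T3 domains (93.1%), although the E14 domains were longer, with a median span of 139.2 against 82.5 kb. E14 domains are by definition free of 3T3 DRIP-seq peaks, so this difference is tied to how domains were chosen. No DRIPc-seq list of E14 was analysed here. The counts by chromosome differed in their order too: chromosome 14 had 81 E14 and 8 3T3 domains, while chromosome 15 had 59 and 34.

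The large E14 domains were of more than 1 kind, and 3 of the 5 were chains of at least 140 peaks with medians under the 1758 bp of the whole list. By covered length the first was on chromosome 12 from 22080926 to 22462114, with 304.0 kb in 5 peaks, but 299.9 kb of it was the single long peak named above. On chromosome 14 from 3019857 to 7771032, 154 peaks with a median length of 1284 bp covered 267.2 kb, or 5.62% of the span. The stretch without a 3T3 peak ran for 7803 kb there, counted from the chromosome's start, although E14 had no peak before 3019857 either. On chromosome 4 from 146249904 to 147183909, 140 peaks with a median of 1293 bp covered 239.5 kb, and the median gap between them was 1.84 kb. On chromosome 13 from 65410011 to 66961942, 152 peaks with a median of 1084 bp covered 218.7 kb. On chromosome 8 from 89447102 to 90649679, 49 longer peaks, with a median of 2349 bp, covered 165.5 kb and no DRIPc peak was listed. In the other 4 domains, DRIPc-seq covered at most 10.6 kb.

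The large 3T3 domains were compact, and their median peak lengths lay on both sides of the 2199 bp of the whole list. On chromosome 11 from 67267303 to 67519354, 23 peaks with a median of 4355 bp covered 205.6 kb, 81.6% of the span, in a stretch of 913.4 kb without an E14 peak. 43 DRIPc peaks covered 102.6 kb of it. On chromosome 10 from 68996287 to 69490932, 53 peaks with a median of 1865 bp covered 173.0 kb and 62 DRIPc peaks 69.0 kb. On chromosome 1 from 73948178 to 74245544, 24 peaks with a median of 5878 bp covered 154.2 kb, with 22.3 kb of DRIPc cover. On chromosome 4 from 114076055 to 114594235, 27 peaks with a median of 4531 bp covered 152.6 kb, with 127.6 kb of DRIPc cover. On chromosome 5 from 107527620 to 107828065, 30 peaks with a median of 1890 bp covered 113.3 kb. The span of these 5 domains was between 252.1 and 518.2 kb, while 3 of the 5 E14 domains spanned more than 1 Mb.

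**Figure D3:**
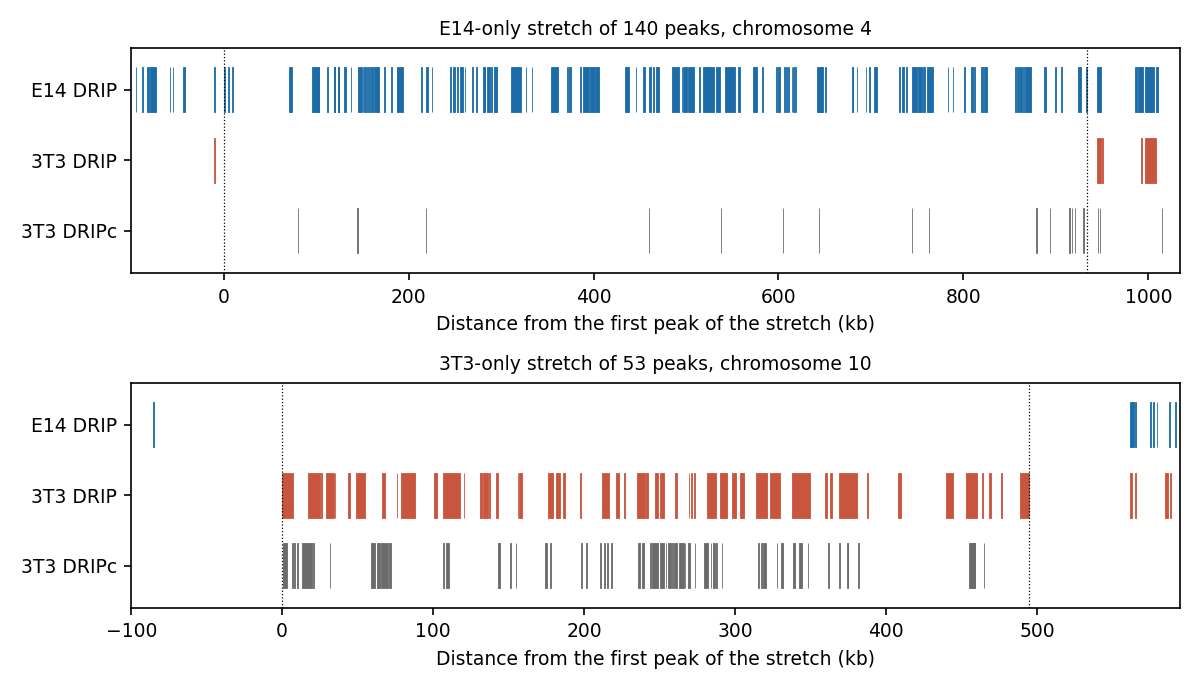
Peaks of the 3 mouse lists across an E14-only domain on chromosome 4 (top) and a 3T3-only domain on chromosome 10 (bottom), by distance in kb from the first peak of the domain; dotted lines mark its ends. The 140 E14 peaks are flanked by 3T3 peaks on both sides, and their span holds 15 DRIPc peaks covering 3.85 kb, while the span of the 53 3T3 peaks holds 62 DRIPc peaks.

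Long regions were unshared about as often in both lists. With abutting peaks joined, 333 of 2548 3T3 regions of 10 kb or more had no E14 peak (13.1%), and 162 of 1220 in E14 had no 3T3 peak (13.3%). At 20 kb or more these counts were 37 of 417 (8.87%) and 7 of 91 (7.69%). Beside the 299.9 kb peak, the longest in E14 were a region of 26.3 kb on chromosome 15 (58878830 to 58905175) and another of 26.3 kb on chromosome 11 (64821735 to 64848002). A region of 23.4 kb on chromosome 5 (33813109 to 33836497) and one of 23.3 kb on chromosome 17 (6942750 to 6966010) followed. None of these 4 had a DRIPc peak, while 2 DRIPc peaks covered 9.37 kb of the 299.9 kb peak. In 3T3, the 5 longest measured 33.0 to 86.1 kb and each touched DRIPc peaks, over very different parts of their length. On chromosome 11, DRIPc-seq covered 37.8 kb of the 86.1 kb region and 8.10 kb of one of 33.0 kb (67478131 to 67511176). A region of 36.4 kb on chromosome 18 had 17.7 kb of DRIPc cover. The cover was only 1.80 kb of a 48.4 kb region on chromosome 10, and 0.900 kb of one of 36.5 kb on chromosome 5 (135177435 to 135213939).

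The longest regions present in both lists were covered for the most part by each. On chromosome 8 from 126048211 to 126148778 (100.6 kb), E14 covered 88.4 kb in 2 peaks and 3T3 99.8 kb in 10. On chromosome 7 from 52229066 to 52308422 (79.4 kb), E14 covered 67.4 kb and 3T3 79.0 kb. On chromosome 1 from 95124747 to 95204007 (79.3 kb), the values were 57.7 and 76.8 kb. All 3 were also present in DRIPc-seq, which covered the whole of the first.

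Unshared peaks came in runs. Read along a chromosome, the peak after an unshared E14 peak was itself unshared in 73.3% of cases (72.8 to 73.8%), and after a shared peak in 28.4% (27.8 to 28.9%). In 3T3 these values were 59.3% (58.5 to 60.1%) and 25.3% (24.8 to 25.9%). The difference was present in every length class of the following peak. For peaks of 2 to 5 kb in E14 it was 66.7% after an unshared and 19.7% after a shared peak, and in 3T3 53.6% and 19.2%.

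The likeness of neighbours faded with the gap between them in both lists. For E14 peaks 1 to 5 kb apart, the next peak was unshared in 73.0% of cases after an unshared and in 27.2% after a shared peak, a difference of 45.8 percentage points. The difference was 63.2 points at 2 bp to 1 kb, 35.7 points at 5 to 20 kb, 23.8 points at 20 to 100 kb and 13.9 points at 100 kb or more. In 3T3 it was 44.3 points at 2 bp to 1 kb, 40.6 points at 1 to 5 kb, 33.2 points at 5 to 20 kb, 20.4 points at 20 to 100 kb and 4.48 points at 100 kb or more, where the intervals (41.9 to 47.2% and 37.8 to 42.3%) overlapped. Abutting peaks, which can be parts of 1 region, showed the widest difference, 72.3 points in E14 and 51.9 points in 3T3. Close neighbours can also be touched by the same peak of the other list, and such cases were not separated.

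E14 had both more and longer runs. Its 26917 unshared peaks fell into 7200 runs with a mean of 3.74 peaks, and 3T3's 13509 into 5506 runs with a mean of 2.45. Runs of at least 10 peaks numbered 581 in E14 and 176 in 3T3, and they held 38.0% and 22.0% of the unshared peaks. Runs of 20 or more numbered 144 and 42. Isolated unshared peaks made up 11.0% of the unshared peaks in E14 and 22.4% in 3T3. A list with a larger unshared share has longer runs for that reason too, and the run counts of the lists were not adjusted for it. Shared peaks ran together as well, with a mean of 3.52 in E14 and 3.94 in 3T3. Shared runs of at least 10 peaks numbered 481 in E14 and 452 in 3T3, so in 3T3 they outnumbered the unshared ones. No shared run exceeded 46 peaks.

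**Figure D4:**
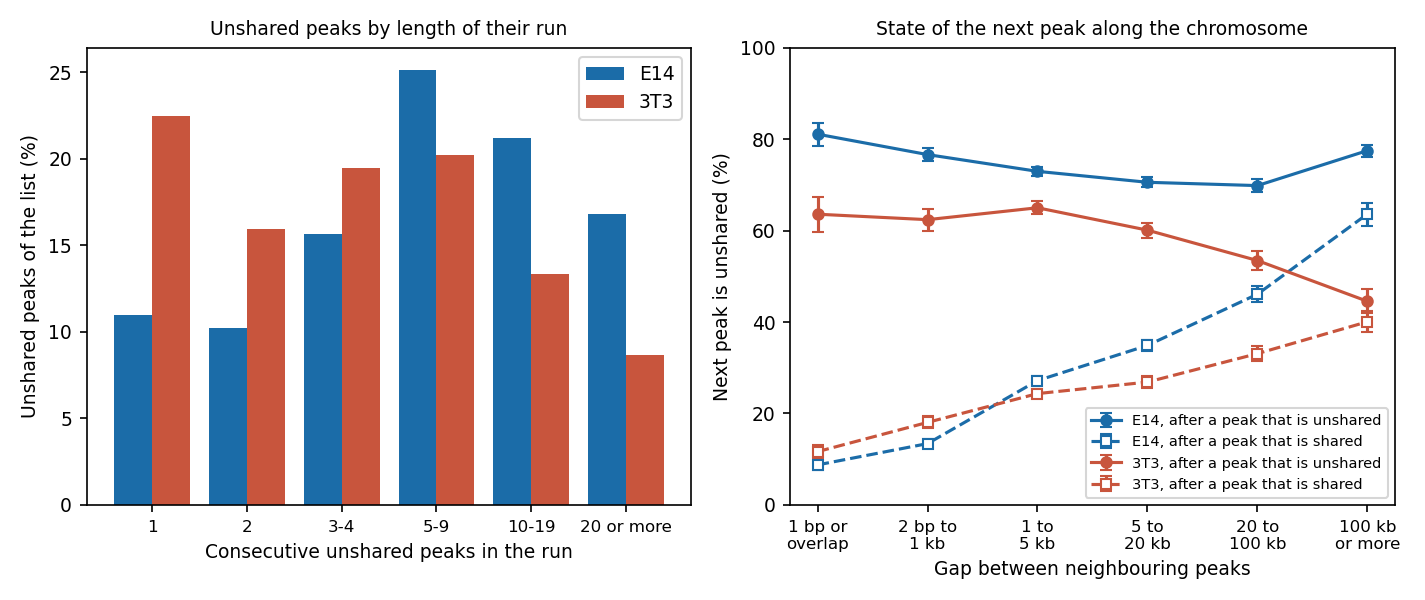
Left, percent of the unshared peaks of E14 (blue) and 3T3 (red) by the number of consecutive unshared peaks in their run. Right, percent of cases in which the next peak is unshared, by the gap to it, after an unshared (filled) or a shared (open) peak, with exact 95% intervals; at gaps of 100 kb or more the curves of 3T3 are 4.48 points apart and those of E14 13.9 points.

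The longest runs included several of the domains above. In E14, 156 consecutive unshared peaks ran over 4.80 Mb of chromosome 14, from 3019857 to 7821651, past a single 3T3 peak of 0.271 kb that touched none of them. The next runs, of 152 and 140 peaks, were the domains on chromosomes 13 and 4 described above. In 3T3, the 53 peaks of the chromosome 10 domain were the longest run. A run of 50 3T3 peaks followed on chromosome 11 from 107555078 to 108205898, with 1 E14 peak of 2.84 kb between them and 107.4 kb of DRIPc cover. Another run, of 48 peaks on chromosome 1 from 170148612 to 172122637, spanned 1.97 Mb. It was not free of stem cell signal: 12 E14 peaks covering 16.7 kb lay among the 3T3 peaks without touching one.

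3T3 DRIPc-seq touched unshared E14 peaks less often than unshared 3T3 peaks. It touched 49.5% (48.9 to 50.2%) of shared and 12.2% (11.8 to 12.5%) of unshared E14 peaks. Of 3T3 peaks it touched 51.9% (51.2 to 52.5%) of the shared and 35.8% (35.0 to 36.7%) of the unshared. At matched length the fibroblast difference was small and narrowed among long peaks. Between 2 and 5 kb, 53.0% (51.9 to 54.1%) of shared and 45.8% (44.2 to 47.4%) of unshared 3T3 peaks were touched. At 10 kb or more the shares were 86.2% (84.5 to 87.8%) and 86.1% (81.7 to 89.7%). In E14 the difference remained wide in every class, with 51.8% (50.9 to 52.8%) and 12.7% (12.0 to 13.5%) between 2 and 5 kb and 83.9% (81.0 to 86.6%) and 25.4% (18.1 to 33.9%) at 10 kb or more. No DRIPc-seq list of E14 was analysed here, so the same question could not be put to the stem cell peaks. The DRIPc library comes from the same line as the 3T3 list, and the share touched by placement alone was not computed. Unshared E14 peaks are by definition places without a 3T3 DRIP-seq peak. The contrast with unshared 3T3 peaks is therefore tied to the sharing rule and is no independent check of either list.

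**Figure D5:**
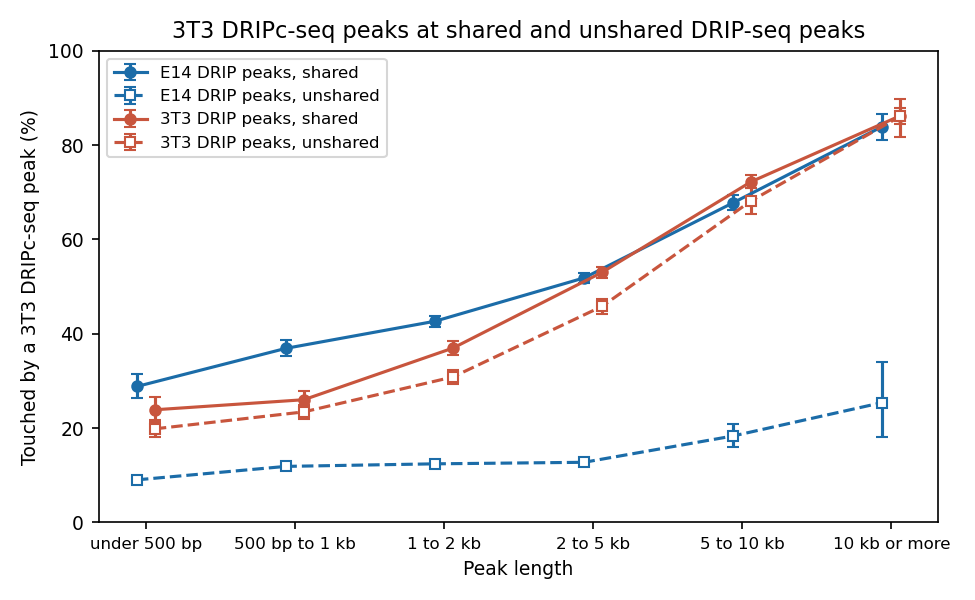
Percent of DRIP-seq peaks touched by a 3T3 DRIPc-seq peak, by peak length, for E14 (blue) and 3T3 (red), shared (filled) and unshared (open), with exact 95% intervals. Unshared 3T3 peaks follow the shared ones closely and meet them at 86.1% for 10 kb or more, while unshared E14 peaks stay at or under 25.4%.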

How the data were processed

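The peak lists were used as deposited by the authors, with start and end positions in base pairs; the score column of the E14 and 3T3 DRIP-seq lists, as deposited, is 0 in every row and was not used. Tools listed in the submitters' processing notes, with no role stated, are Bismark 0.7.7, BWA 0.6.1 and TopHat2 2.0.5, and the builds listed include mm9. The sources used here do not say how peaks were called. Samples were grouped by line and assay, per the labels.

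Peaks on chromosomes 1 to 19 were compared with strand ignored, and 194 E14 and 70 3T3 rows with a minus sign were kept. The last position in any mouse list served as the end of a chromosome. Covered length counts overlapping peaks once. Shared counts were the same with bedtools 2.31.1. Computation used numpy 2.4.6, scipy 1.17.1, pandas 2.3.3 and matplotlib 3.10.9 under Python 3.11.15, and the functions were tested on simulated lists. Length classes were bounded at 500 bp and at 1, 2, 5 and 10 kb.

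Named regions were, for each list, the 5 longest regions absent from the other list, the 5 domains with the largest covered length, the 3 longest runs, the 5 bins with the largest ratio among those with at least 20 kb, and the 3 longest regions of both lists. The chromosomes named in the text were picked after their values were seen. The comparison and its rules were chosen with earlier results of these data known. Planned gene lists and the search for enzyme sites were not run, since no mm9 genome or annotation was used; no sequence is printed for the same reason.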

Additional observations from a re-analysis of the deposited data

Results flagged for a closer look

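Peaks outside chromosomes 1 to 19 took no part in the comparison. They are given here for sequences on which at least 1 list held more than 3 peaks, a limit set for reporting only. Chromosome X held 1408 E14 peaks covering 2916 kb and 609 3T3 peaks covering 1560 kb. Chromosome Y held 27 peaks in E14 and 6 in 3T3. The unplaced sequences of chromosome Y held 108 E14 peaks covering 59.7 kb, and 1 3T3 peak of 4.11 kb. Other unplaced sequences held 69 peaks in E14 and 58 in 3T3, covering 139.7 and 142.2 kb.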

How the results depend on the processing

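Of 51 alternative values for 11 results, 22 stayed within the interval of the reported value, or within 1.5 times a count or 0.005 of a correlation, and 29 moved. The share of E14 peaks found in 3T3 was 40.4% with 50% cover required, 45.4% with peaks within 1 kb merged, 47.8% on all chromosomes and 47.2% with abutting peaks merged, a setting chosen after the data were seen. The share of 3T3 peaks found in E14 was 47.8% with 50% cover, 50.3% in base pairs and 61.0% with abutting peaks merged. With 50% cover, the length-weighted shares were 43.4% for E14 and 46.3% for 3T3. Bins with more E14 cover numbered 235 with bins of 2 Mb, 604 with 2 kb added, 91 with 20 kb added, 571 centred on total cover and 620 without centring. Those with more 3T3 cover numbered 579 with bins of 0.5 Mb, 115 with bins of 2 Mb, 136 with 20 kb added, 176 centred on total cover and 162 without centring. Other bin sizes also change the number of bins compared, to 4409 at 0.5 Mb and 1222 at 2 Mb. The rank correlation of cover was 0.77 in bins of 0.5 Mb, 0.86 in bins of 2 Mb and 0.83 for peak counts. E14-only domains numbered 2903 with at least 3 peaks, 497 with at least 10 and 805 with the longest 50% of peaks, and 3T3-only domains 1264, 140 and 269. Runs of at least 10 unshared 3T3 peaks numbered 322 with 50% cover. E14 had more domains and more such runs than 3T3 under each of these settings, but no setting evened out the number of peaks in the lists. The depth of either library is unknown. No paired analysis was possible because each line has 1 list and no test was made.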

Other observations

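The share found in the other list differed between the authors' class names of the peaks at like length too. Among E14 peaks of 2 to 5 kb, 78.7% (77.4 to 80.0%) of 3973 named Noisy_BroadPeak were found in 3T3, 63.3% (54.9 to 71.1%) of 147 named Sparse_SharpPeak, 53.0% (52.1 to 53.8%) of 12949 named Noisy_MedPeak and 11.9% (9.76 to 14.4%) of 796 named Sparse_MedPeak. Among 3T3 peaks of that length, the shares found in E14 were 85.1% (83.3 to 86.8%), 85.9% (77.4 to 92.0%) of 99 peaks, 65.8% (64.8 to 66.8%) and 46.9% (41.7 to 52.1%) in the same order, so Sparse_MedPeak was lowest in both lists. What the names stand for was not stated in the labels or file headers.

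A block of 6 consecutive bins on chromosome 14, from 3 to 9 Mb, was higher in E14 throughout, with 402.0 kb in 227 E14 peaks against 34.5 kb in 15 3T3 peaks. The longest block higher in 3T3 spanned 5 bins on chromosome 17, from 47 to 52 Mb, with 469.7 kb in 3T3 and 259.0 kb in E14. Both blocks were picked with their values in view.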
